A study of Mus musculus with 12 samples.

Results

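Among labelled mouse hepatocytes sorted as they take on biliary surface markers, cells with Cd24 but not Epcam form an intermediate group, and the genes described here are those whose level in that group lay beyond both neighbouring stages. They were chosen by contrasting the intermediate group with the midpoint of the log means of the early and full groups, and then by requiring a called difference in 1 direction from each neighbour. A gene called higher in intermediate than in early and also higher than in full is termed a transient rise, and a gene called lower than both a transient dip. Of 16210 genes tested, 116 were transient rises (0.716%) and 170 were transient dips (1.05%), 286 genes in all.

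RNA was sequenced from 12 libraries of cells sorted from mouse liver, 3 in each of 4 groups. All groups carry the genotype label WT and the same treatment: AAV8-TBG-Cre, then from 1 week later a diet with 0.1% DDC for 8 weeks. The virus expresses Cre recombinase from the TBG promoter, which is active in hepatocytes, and DDC is a compound that injures the bile ducts. The early group is EGFP+ Cd24- Epcam-, the intermediate group EGFP+ Cd24+ Epcam-, the full group EGFP+ Cd24+ Epcam+, and BEC, the resident biliary epithelial cells, EGFP- Epcam+. EGFP therefore stands for hepatocyte origin only as far as the TBG promoter is restricted to hepatocytes. The stages are sort gates taken at 1 time and not the same cells followed over time. The EGFP allele, the age and sex of the mice, and whether mice were pooled were not given in the sources used here. Nothing in the labels says that the 3 libraries of a group came from separate animals, so p-values measure the spread between these libraries, which may be technical.

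Hepatocytes and biliary cells arise from a common progenitor, and after bile duct injury hepatocytes can take on biliary gene expression, with Notch, YAP and TGF-beta signalling among the pathways known to take part. Proliferating cells make the genes of DNA replication and of mitosis in order. E2F factors turn on the first set. The second set follows under factors that act through CCAAT boxes and through the cell cycle homology region (CHR) of promoters. A gene with like levels in early and full cells shows no difference when only these are compared.

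Total counts ran from 15112893 to 19731887 per library. Counts were scaled by TMM factors, which were 0.652 to 0.672 in early libraries, 1.03 to 1.05 in intermediate and 1.19 to 1.22 in full, and levels are given as CPM, the count relative to the scaled library size. Such levels are not corrected for gene length, so they compare libraries and not genes. The mitochondrial share was 5.45% to 11.4% of counts in early, 3.99% to 4.75% in intermediate and 2.20% to 2.48% in full. Early replicate 2 had the share of 11.4%, and early replicate 3 stood above the other early libraries in cell cycle genes, as described with those genes. The sort markers followed the gates: Cd24a stood at 1.30 to 5.55 CPM in early, 361 to 510 in intermediate and 931 to 1178 in full, and Epcam at 0.324 to 0.819, 12.4 to 26.6 and 207 to 283. Hepatocyte Alb, at 10500 to 14060 CPM in intermediate libraries, lay between early (72050 to 74700) and full (2237 to 3089), as did biliary Krt19 (0.906 to 2.96 in intermediate, at most 0.162 in early and at least 102 in full). None of the 18 hepatocyte and 16 biliary list genes was a transient rise or dip, though the biliary gene Anxa2 was a rise with the replicate number as a block.

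Against the midpoint, 2665 genes differed (16.4% of those tested, edgeR quasi-likelihood test, Benjamini-Hochberg adjusted p under 0.05). Of these, 1750 were higher in intermediate (10.8%) and 915 lower (5.64%), and the median over all genes was 0.04 on the log2 scale. Most of the calls were not beyond both neighbours. Among the higher genes, 1134 lay between an early level below and a full level above, 117 lay between in the opposite order, and 499 had the highest fitted level of the 3 stages. Among the lower genes, 402 lay between with full below early, 83 lay between with full above early, and 430 had the lowest fitted level. All 116 rises and 170 dips came from these last groups, and the 383 and 260 genes that remained had the shape without a call against both neighbours. When libraries were scaled by total counts alone, the share of midpoint calls that were higher moved from 65.7% to 92.8%, and the medians over all genes moved to 0.27 against the midpoint, 0.72 against early and -0.21 against full. With DESeq2 that share was 53.1%, and with median-of-ratios factors in edgeR 55.7%. Directions here are relative to the TMM scale.

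The separate steps were much larger than the transient classes. Intermediate was higher than early for 4658 genes (28.7%) and lower for 4159 (25.7%), and higher than full for 3214 (19.8%) and lower for 3376 (20.8%), with medians over all genes of 0.06 against early and -0.01 against full. Both steps use the same 3 intermediate libraries. Each step was adjusted over all genes on its own, and the pair was not adjusted jointly. Unless a block is named, the SEs and p-values here come from the fit without a term for the replicate number. With the replicate number as a block, 183 rises and 208 dips were called. The size of a transient change is taken as the smaller of its 2 absolute log2 fold changes. Rises were small, with a median size of 0.53 and 63 of 116 under 1.5-fold, and dips were larger, with a median size of 1.19 and 37 of 170 under 1.5-fold. A size of at least 2-fold was reached by 23 rises (0.142% of genes tested) and 101 dips (0.623%). Just inside that threshold lay the rises Acot2 (1.04) and Syn2 (1.03) and the dips Wdr62 (1.01) and Aurka (1.0). Just outside it lay the rises Bmp4 (0.92) and Gm31084 (0.86) and the dips Spc24 (0.99) and Lamb3 (0.97). The 3 intermediate libraries lay above all 6 neighbouring libraries for 107 of the 116 rises and below all of them for 130 of the 170 dips (1.94% and 1.38% over all genes), which the choice of these genes from the same libraries largely fixes. Fewer cells expressing a gene and less RNA per cell cannot be told apart in these bulk libraries.

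**Figure D1:**
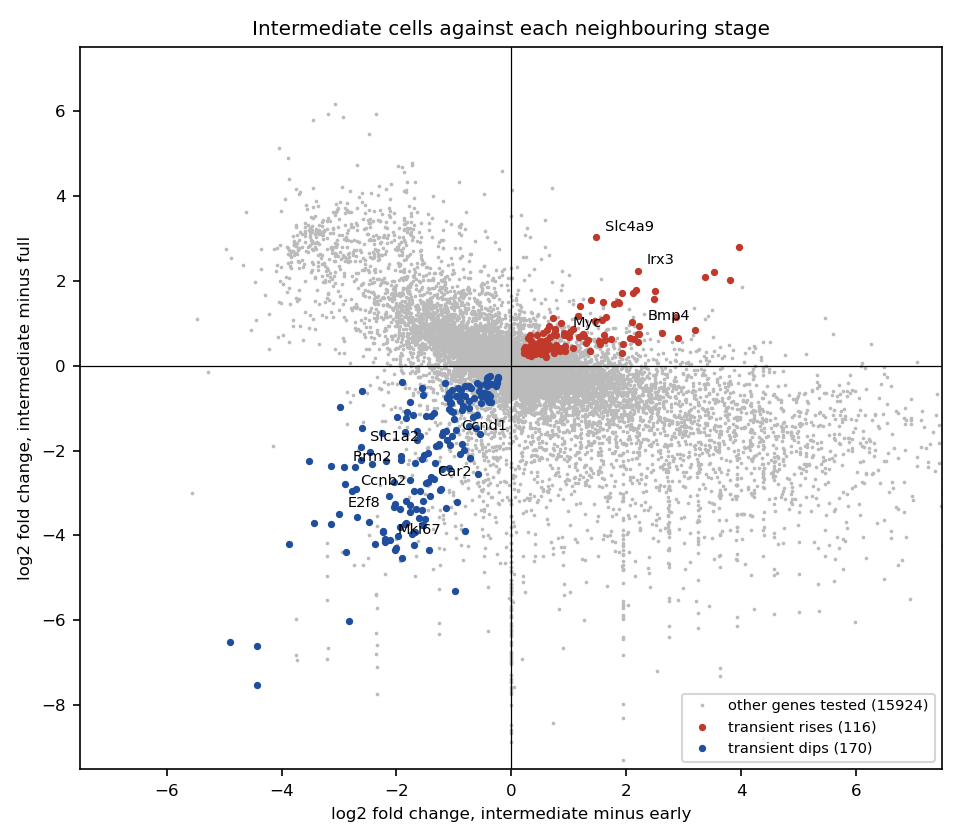
Each point is 1 gene, with its log2 fold change of intermediate minus early on the horizontal axis and of intermediate minus full on the vertical axis, and 52 genes that are not transient lie outside the axes. The 116 transient rises (red) sit in the upper right, mostly near the origin, and the 170 transient dips (blue) in the lower left reach further out.

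Of the 36 gene lists examined, mitosis held the most dips. All 30 genes of a mitosis list were called lower in intermediate than the midpoint, as were 5.64% of all genes. Of the 30, 20 were transient dips, as were 1.05% of all genes. The other 10 were lower than full but did not pass the test against early. The median log2 fold change over the 30 genes was -1.51 against early and -3.22 against full, and 30 of 30 had the lowest fitted level in intermediate, as 11.3% of all genes did. Joined, 4 cell cycle lists held 105 genes, of which 60 were lower than the midpoint, 2 were higher, 29 were transient dips and 0 were transient rises. Of the 101 dips of 2-fold, 26 came from these lists. The lists are short, and dips outside them, such as Cdc25c, Kif4, Nek2 and Cdca3, also encode proteins of cell division, so 26 is not the number of cell cycle genes among the dips.

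Ccnb2, cyclin B2, which activates CDK1 at entry into mitosis, stood at 14.1, 4.00 and 8.34 CPM in the early libraries, at 1.19, 1.26 and 1.42 in intermediate and at 9.87, 9.99 and 10.4 in full. The intermediate libraries were the lowest 3 of the 9, and early and full overlapped each other. Ccnb2 fell by 2.77 on the log2 scale between early and intermediate (SE 0.37, edgeR adjusted p 2.79e-05) and was lower than in full by a log2 difference of -2.96 (SE 0.37, adjusted p 2.42e-05). Full against early gave 0.19 for this gene (adjusted p 0.598), so no difference was detected between the 2 ends of the series. The BEC libraries, at 9.35, 9.88 and 13.4 CPM, lay in the range of early and full.

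Its partner kinase Cdk1 stood at 8.07, 6.28 and 15.5 CPM in early, at 2.33, 2.14 and 2.77 in intermediate and at 15.2, 15.9 and 17.1 in full. Again no intermediate library reached an early or full one (log2 -2.05 against early, SE 0.32, adjusted p 9.53e-05, and -2.73 against full, SE 0.31, adjusted p 1.11e-05). Mki67, which encodes the proliferation antigen Ki-67 that coats mitotic chromosomes, stood at 16.4, 9.0 and 38.8 CPM in early, at 4.40, 2.74 and 7.70 in intermediate and at 62.8, 88.8 and 106 in full. Here full was also higher than early (log2 2.0, adjusted p 0.00059), and the difference from full was the larger one. The log2 difference was -2.12 against early (adjusted p 0.00155) and -4.12 against full (adjusted p 1.07e-05).

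Birc5, which encodes survivin of the chromosomal passenger complex, had 3.55 to 6.17 CPM in early, 0.438 to 1.07 in intermediate and 5.53 to 6.78 in full. The centrosome kinase gene Nek2 had 4.00 to 11.2, 1.31 to 1.82 and 6.78 to 10.1 CPM in the same order, and Cdca3, which encodes a trigger of mitotic entry, 5.55 to 19.6, 1.26 to 2.60 and 7.79 to 10.4. None of these 3 was called between early and full (adjusted p 0.513, 0.770 and 0.325), and each was lower in intermediate than in either, by log2 differences from -2.91 to -2.22. Hmmr, a microtubule-binding protein of the spindle, and Ttk, the spindle checkpoint kinase, dipped at lower levels, with 0.657 to 0.962 and 0.164 to 0.679 CPM in intermediate. Arhgap11a had 7.82 to 17.2 CPM in early, 3.51 to 6.91 in intermediate and 17.7 to 21.6 in full.

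Upstream of these genes stand the E2F factors and the G1 cyclins. In the list of G1 cyclins, CDK inhibitors and E2F factors, 5 of 25 members dipped, where 1.05% of all genes did. Against early, 9 members were higher in intermediate and 6 lower, where 28.7% and 25.7% of all genes were. Nothing particular to the list is read from the counts against early. The list medians were 0.03 against early (0.70 with total counts) and -0.52 against full. E2f1, an activator of replication genes, stood at 10.9, 12.6 and 20.4 CPM in early, at 3.58, 5.70 and 4.75 in intermediate and at 15.9, 11.6 and 13.2 in full (log2 -1.64 and -1.53, adjusted p 0.000137 and 0.000358). E2f8, an atypical E2F that represses and is known for its part in hepatocyte polyploidy, stood at 1.42, 2.55 and 5.91 CPM in early, at 0.440, 0.110 and 0.679 in intermediate and at 3.74, 4.42 and 5.73 in full (log2 -3.00 and -3.49, adjusted p 0.000667 and 0.000236). Its relative E2f7 had 0.237 and 0.364 CPM in early replicates 1 and 2, near the level of 3 counts, and 1.38 in early replicate 3, against 0.126 to 0.219 in intermediate and 3.45 to 5.03 in full. The E2f7 dip was lost without early replicate 3 and without intermediate replicate 1 or 3, with total counts, with a mean of at least 50 counts and against a minimum 1.5-fold change. At a much higher level, Ccnd1, cyclin D1, which couples growth signals to G1 progression, stood at 122, 154 and 178 CPM in early, at 82.5, 74.6 and 66.1 in intermediate and at 255, 234 and 213 in full. The groups did not overlap, and Ccnd1 fell by 1.02 on the log2 scale at the first step (SE 0.13, adjusted p 2.08e-05) before a difference of -1.65 against full (SE 0.13, adjusted p 6.89e-07). BEC had 375 to 424 CPM of Ccnd1.

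Genes of DNA replication were fewer among the dips, a difference between lists that was not tested. The medians over the 30 genes of the list were -0.13 against early and -1.13 against full. Of the 30, 13 were lower than the midpoint (5.64% of all genes were) and 2 were dips (1.05% were). Those 2 both make nucleotides: Rrm2, a ribonucleotide reductase subunit, stood at 12.2, 17.4 and 56.0 CPM in early, at 2.33, 3.34 and 5.66 in intermediate and at 20.5, 18.0 and 21.6 in full (log2 -2.91 and -2.40, adjusted p 0.000188 and 0.00127), and Tyms, thymidylate synthase, fell by 0.53 (adjusted p 0.0143), a dip lost with total counts, in a test against a 1.5-fold change and without early replicate 3. In the list of DNA repair by recombination, 10 of 20 were lower than the midpoint and 2 were dips, against the same shares of all genes. Brca1, which acts in repair of double-strand breaks, had 6.80 to 12 CPM in early, 3.08 to 5.64 in intermediate and 11.2 to 13.8 in full (log2 -1.19 and -1.56, adjusted p 0.000784 and 0.000113). Brip1, a helicase that binds its product, had 3.88 to 6.47, 1.92 to 3.00 and 6.13 to 7.94 CPM. The Brip1 dip was lost with total counts and in the 1.5-fold test, and the Brca1 dip with total counts.

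The 3 early libraries were not alike in these genes. The median over the mitosis list, relative to the mean of early, was -0.16 in early replicate 1, -0.73 in replicate 2 and 1.03 in replicate 3. In intermediate it was -1.21, -1.56 and -0.64, so intermediate replicate 3 lay above early replicate 2, and in full it was 1.8 to 2.13. The summed mitosis list likewise was 77.0 to 266 CPM in early, 42.9 to 78.1 in intermediate and 459 to 631 in full. Without early replicate 3, 9 of the 30 mitosis genes were dips and the median against early was -0.79. Without intermediate replicate 2, 13 were, and with total counts 7 were, with medians of -0.86 against early and -3.43 against full. Within each replicate number, intermediate lay below early for this median in 3 of 3. The median difference from early changed sign for the replication list, to 0.31 without early replicate 3 and 0.53 with total counts, and for the repair list (-0.32), to 0.24 and 0.33.

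**Figure D2:**
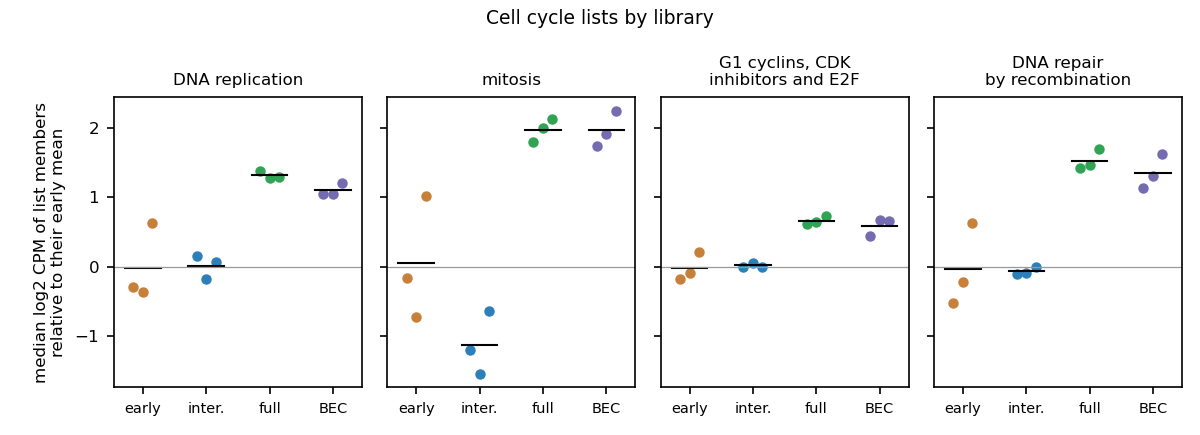
For each of 4 cell cycle lists, the points are the 12 libraries and the lines the group means of the median log2 CPM of list members, relative to each member's early mean. In the mitosis panel the intermediate libraries (-1.56 to -0.64) lie lowest and early replicate 3 (1.03) lies above the other early libraries, while in the replication panel early and intermediate overlap.

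Promoters of the mitosis genes that dipped were searched for the motifs named above. In the 250 bases before the RefSeq start (build GRCm38.p6), 16 of the 20 had an entry, and 14 of these (87.5%) held CCAAT on either strand, where 36.2% of the 11575 tested genes with an entry did. At least 2 such matches were found in 11 of 16 (68.8%, against 13.2% of all), and the CHR element TTTGAA, searched on both strands, in 7 of 16 (43.8%, against 10.9%). An E2F motif, written as TTT, then CC, CG, GC or GG, then CGC, on either strand, was found in 1 of 16 (6.25%, against 3.28%). The whole mitosis list, with 25 entries, held CCAAT in 80.0% and the CHR in 32.0%. Among all dips with an entry (136), 54.4% held CCAAT and 19.9% the CHR, and among rises (89) 37.1% and 4.49%. These shares describe letters in a window and are not binding sites, and no set test was made.

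The 150 bases before the start are shown for 4 of the dips, chosen after the matches were seen, because they carry the motif pair; capitals mark CCAAT or its reverse, TTTGAA or its reverse, and the E2F motif. All 4 are read 5′ to 3′ on the minus strand of GRCm38.p6, at chr9:70421555-70421704 for Ccnb2, chr10:69352913-69353062 for Cdk1, chr7:135716380-135716529 for Mki67 and chr2:113848662-113848811 for Arhgap11a.
Ccnb2: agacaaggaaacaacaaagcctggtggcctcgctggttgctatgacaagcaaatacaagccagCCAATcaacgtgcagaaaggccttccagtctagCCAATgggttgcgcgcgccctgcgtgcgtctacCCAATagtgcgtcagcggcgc
Cdk1: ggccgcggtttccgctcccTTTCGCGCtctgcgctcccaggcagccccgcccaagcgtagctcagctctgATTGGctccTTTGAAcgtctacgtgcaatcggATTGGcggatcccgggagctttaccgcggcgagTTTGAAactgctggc
Mki67: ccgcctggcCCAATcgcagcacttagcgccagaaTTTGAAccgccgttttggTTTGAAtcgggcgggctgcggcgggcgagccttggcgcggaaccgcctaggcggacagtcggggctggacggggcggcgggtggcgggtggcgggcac
Arhgap11a: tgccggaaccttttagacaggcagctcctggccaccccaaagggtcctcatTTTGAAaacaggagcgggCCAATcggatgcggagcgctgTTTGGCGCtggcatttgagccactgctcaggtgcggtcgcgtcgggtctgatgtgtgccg

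Ccnb2 shows 3 CCAAT matches in this stretch and has its CHR match further upstream. Cdk1 shows 2 of each and 1 E2F match, Mki67 shows 1 CCAAT and 2 CHR matches, and Arhgap11a shows 1 of each of the 3 motifs.

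The dips were also set against resident biliary cells. The BEC mean lay above the means of both early and full for 108 of the 170 dips, 95 of them among the 141 outside the 4 cell cycle lists (which still hold genes of cell division), and for 34.0% of all genes tested. It lay below both for 18 of the 170, and for 29.0% of all genes. Intermediate is left out of this count, since the choice of the dips places it lowest of the 3 stages. BEC entered no contrast that chose the genes, but its libraries entered the filter on low counts, the scaling and the estimate of spread. With the 9 libraries of the 3 stages alone, 15490 genes were tested, and 152 of the 170 dips and 102 of the 116 rises were called again. Over those 152 dips the BEC mean lay above both for 98 and below both for 18, and over the genes tested in both fits for 31.7% and 30.2%. No test was made on these counts. A total of 42 dips outside the cell cycle lists had a BEC mean at least 2-fold above full, of which 37 were among the 152. Over all genes tested in both fits, 892 of 15481 had a BEC mean that far above full.

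Car2, carbonic anhydrase 2, which serves bicarbonate secretion in duct cells, stood at 11.1, 12.8 and 18.8 CPM in early, at 5.91, 4.22 and 5.6 in intermediate, at 45.5, 30.7 and 29.4 in full and at 243, 187 and 196 in BEC. Every intermediate library was below every other library of the 12 (log2 -1.44 against early, SE 0.24, adjusted p 0.000156, and -2.75 against full, SE 0.23, adjusted p 7.46e-07). Lad1, ladinin, an anchoring filament protein of basement membranes, stood at 24.7, 34.9 and 28.6 CPM in early, at 11.2, 9.42 and 10.1 in intermediate, at 62.9, 41.2 and 28.5 in full and at 147 to 153 in BEC. Full replicate 3 lay within the early range, and the intermediate libraries lay below both groups (log2 -1.52 and -2.11, adjusted p 9.20e-05 and 8.02e-06). P2ry2, a receptor for extracellular ATP and UTP, had another order, with 34.0, 26.5 and 34.1 CPM in early, 6.98, 3.62 and 5.04 in intermediate, 18.3, 14.2 and 10.8 in full and 56.3 to 67.4 in BEC. It fell by 2.61 on the log2 scale from early to intermediate (SE 0.23, adjusted p 5.09e-07) and was lower than in full by -1.48 (SE 0.23, adjusted p 0.000157), while full stayed below early (log2 -1.13, adjusted p 0.000239).

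Slc1a2, which encodes the glutamate transporter GLT-1, had 25.7, 13.0 and 5.50 CPM in early, 3.58, 1.97 and 1.75 in intermediate, 7.45, 10.3 and 9.58 in full and 19.7 to 27.7 in BEC. The early libraries spread widely, and all lay above intermediate (log2 -2.61 and -1.91, adjusted p 0.000248 and 0.0037). Gpx2, a glutathione peroxidase of epithelia, had 8.58 to 13.5 CPM in early, 3.11 to 3.46 in intermediate, 5.75 to 10.1 in full and 47.3 to 58.4 in BEC. Lcn2, lipocalin 2, an acute phase and NF-kB target, stood at 1323, 721 and 670 CPM in early, 408, 214 and 154 in intermediate, 701, 538 and 413 in full and 1077 to 1711 in BEC. Its log2 differences were -1.81 (adjusted p 0.000615) and -1.09 (adjusted p 0.0213). The dip was lost without intermediate replicate 2 or 3 or full replicate 1 and in the 1.5-fold test. With the replicate number as a block the Lcn2 differences were -1.85 and -1.17 (edgeR adjusted p 7.12e-08 and 9.27e-06). Lcn2 was the 1 dip among 18 tested NF-kB targets and among 17 acute phase genes, where 1.05% of all genes were dips. Nothing particular to a list is read from counts of 1 or 2 members.

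Among signalling genes, the Notch ligand Dll1 had 8.15 to 14.6 CPM in early, 4.84 to 6.96 in intermediate and 10.2 to 11.5 in full (log2 -1.07 and -0.88, adjusted p 0.000522 and 0.00283), a dip lost with total counts and in the 1.5-fold test. It was the 1 dip among 13 Notch pathway genes tested, of which 9 were higher in intermediate than in early, as 28.7% of all genes were. Erbb4, a neuregulin receptor, had 1.82 to 3.37, 1.30 to 1.37 and 17.8 to 22.9 CPM, so its dip was a step of -0.80 (adjusted p 0.0148) before a difference of -3.90, and the call was lost without early replicate 2, with total counts and in the 1.5-fold test. Igf1, insulin-like growth factor 1, a hepatocyte product, stood at 358, 428 and 519 CPM in early, 65.2, 57.5 and 92.5 in intermediate and 91.2, 114 and 118 in full. Intermediate replicate 3 overlapped full replicate 1, the log2 difference from full was -0.59 (SE 0.17, adjusted p 0.0152), and the call was lost without intermediate replicate 1 or 2 or full replicate 2 or 3 and in the 1.5-fold test. Erbb4 and Igf1 were the 2 dips among 24 growth factor and receptor genes tested. The laminin subunit genes Lama3 and Lamb3, chosen after their values were seen, dipped from low early levels. Lama3 had 0.819 to 1.30 CPM in early, 0.113 to 0.219 in intermediate, 7.98 to 14.6 in full and 92.9 to 109 in BEC. Lamb3 had 1.73 to 2.59, 0.736 to 1.45, 31.3 to 54.8 and 237 to 252 CPM in the same order. Its log2 difference was -0.97 against early (edgeR adjusted p 0.0268) and -5.31 against full. Chosen in the same way, Ahr, the aryl hydrocarbon receptor, dipped at a higher level, with 150, 131 and 124 CPM in early, 70.8, 73.3 and 68.2 in intermediate, 103, 104 and 97.5 in full and 188 to 219 in BEC (log2 -0.93 and -0.52, adjusted p 1.57e-06 and 0.000451).

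Early levels of these genes, which the choice of dips places above intermediate, were also set against BEC. The 42 dips were chosen for a BEC mean at least 2-fold above full, which favours low shares. Over them, the early mean was 0.917% to 85.5% of the BEC mean, with a median of 17.6%. It stood at 6.82% for Car2, 19.6% for Lad1 and 50.9% for P2ry2. For the duct markers Krt19, Krt7, Cftr and Epcam, the last a sort marker, it was 0.0187%, 0.0783%, 0.0226% and 0.0683%.

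**Figure D3:**
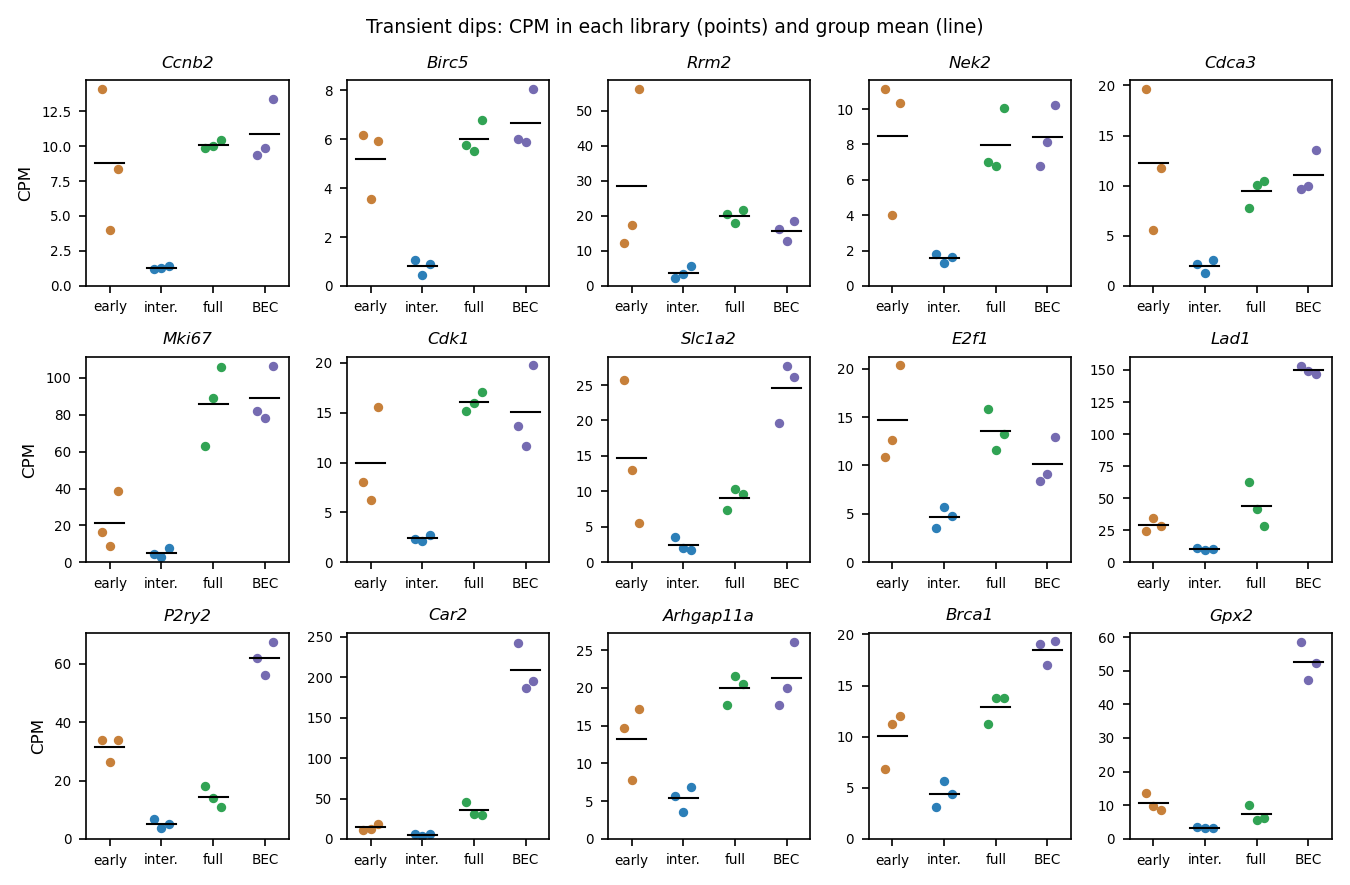
CPM in each of the 12 libraries (points) and the group mean (line) for the 15 dips named for their size, each on its own axis from 0. The 3 intermediate libraries are the lowest in every panel, and BEC is far above the other groups for Lad1, Car2 and Gpx2 but within the range of early and full for Ccnb2.

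Transient rises had a smaller median size than dips, as given above, and numbered fewer on the TMM scale but not with total counts (240 rises and 65 dips). No member of the 4 cell cycle lists was among them, and of the lists examined those of TGF-beta and BMP signalling (2 of 21 tested), immediate early genes (1 of 22) and mesenchymal transition (1 of 12) held any, where 0.716% of all genes were rises. With the replicate number as a block these lists also held Egr2 and Klf6 (immediate early) and S100a6 (mesenchymal transition). The largest named rise was Irx3, an Iroquois homeobox transcription factor, at 3.64, 7.55 and 10.3 CPM in early, 26.6, 30.8 and 41.5 in intermediate and 4.47, 5.35 and 11.2 in full. Intermediate stood clear of both groups, which overlapped each other and gave -0.03 for full minus early (adjusted p 0.953). Irx3 rose by 2.21 on the log2 scale over early (SE 0.39, adjusted p 0.000324) and was higher than in full by 2.24 (SE 0.38, adjusted p 0.000373). BEC had 0.193 to 0.868 CPM.

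Among regulators and ligands, Bmp4, a bone morphogenetic protein, stood at 5.62, 5.28 and 5.10 CPM in early, 23.6, 23.2 and 27.9 in intermediate, 14.6, 10.3 and 14.5 in full and 6.70 to 8.77 in BEC. No libraries of the 3 stages overlapped between groups (log2 2.22 against early, SE 0.17, adjusted p 1.84e-07, and 0.92 against full, SE 0.16, adjusted p 0.000363). Bambi, a decoy receptor of the same family, rose by 1.63 over early and stood 0.61 above full (adjusted p 2.21e-05 and 0.0231), a call lost without intermediate replicate 2 or 3 or full replicate 1 or 2, with total counts and in the 1.5-fold test. Kcp, a secreted modulator of BMP signalling chosen after its values were seen, had 31.6 to 45.4 CPM in early, 107 to 136 in intermediate and 69.2 to 81.5 in full. Igfbp6, which binds insulin-like growth factors, had 2.73 to 3.08, 9.56 to 14.6 and 2.98 to 4.02 CPM (log2 1.93 and 1.70, adjusted p 9.83e-06 and 3.60e-05). Also chosen after the fact, Nrg1, a neuregulin, had 27.8 to 36.9 CPM in early, 61.3 to 67.8 in intermediate and 33.4 to 50.8 in full, at a stage at which its receptor gene Erbb4 was at its lowest.

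Zeb1, a transcriptional repressor known from epithelial-mesenchymal transition, stood at 27.8, 31 and 27.8 CPM in early, 42.1, 45.7 and 48.1 in intermediate, 28.1, 34.0 and 35.8 in full and 8.43 to 10.1 in BEC. The rise was 0.65 over early (SE 0.12, adjusted p 0.000302) and 0.47 over full (SE 0.11, adjusted p 0.00423), and it was lost with total counts and in the 1.5-fold test. Lmcd1, a LIM domain cofactor, had 5.58 to 9.18, 34.8 to 60.9 and 9.45 to 24.5 CPM (log2 2.49 and 1.56). Myc, the growth-associated transcription factor, stood at 60.5, 54.8 and 41.4 CPM in early, 71.0, 91.7 and 133 in intermediate and 37.1, 53 and 83.9 in full. Here intermediate and full overlapped, the log2 differences were 0.92 and 0.77 (adjusted p 0.0116 and 0.0361), and the call was kept in 12 of 20 other settings. It was lost without early replicate 3, intermediate replicate 2 or 3, or full replicate 1 or 2, and with total counts, in the 9-library fit and in the 1.5-fold test.

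Kcnj8, the pore subunit Kir6.1 of ATP-sensitive potassium channels, stood at 6.41, 4.73 and 6.96 CPM in early, 24.2, 22.7 and 19.4 in intermediate, 10.6, 5.84 and 7.57 in full and 0.280 to 0.530 in BEC (log2 1.87 and 1.46, adjusted p 1.17e-05 and 0.000115). Abcc9, which encodes its regulatory partner SUR2 and was looked up for that reason, was also a rise, with 3.24 to 6.28, 15.8 to 20.9 and 10.2 to 14.4 CPM (log2 2.06 and 0.65, adjusted p 1.81e-05 and 0.0425). Slc4a9, an anion exchanger, stood at 6.80, 11.3 and 7.61 CPM in early, 19.7, 16.7 and 35.0 in intermediate and 2.21, 2.50 and 4.02 in full, and its difference from full (log2 3.03, adjusted p 4.44e-06) was larger than that from early (1.48, adjusted p 0.00072). Pde10a, a cyclic nucleotide phosphodiesterase, had 1.27 to 3.24, 5.94 to 8.99 and 2.23 to 3.45 CPM.

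The other rises of the largest size were Fam107a, an actin-associated stress-response gene (2.53 to 11.5 CPM in early, 18.7 to 56.4 in intermediate and 7.17 to 13.6 in full), Arhgap36 (2.93 to 4.64, 8.32 to 13.6 and 2.63 to 4.89), Baiap2l2, a membrane-bending protein (3.64 to 6.18, 13.1 to 16.0 and 6.74 to 7.40), the transcript 9130017K11Rik (0.633 to 1.27, 5.21 to 8.49 and 2.13 to 4.16) and Ugt1a7c (2.93 to 4.29, 6.08 to 9.40 and 2.60 to 3.5). Ugt1a7c lies in a locus of glucuronidation enzymes that share their last exons, so its count is uncertain. At high levels, Tm4sf4, a tetraspan membrane protein chosen after its values were seen, stood at 765, 639 and 597 CPM in early, 1749, 1534 and 1645 in intermediate, 1183, 1027 and 1199 in full and 534 to 665 in BEC (log2 1.30 and 0.53, adjusted p 1.17e-06 and 0.00342).

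**Figure D4:**
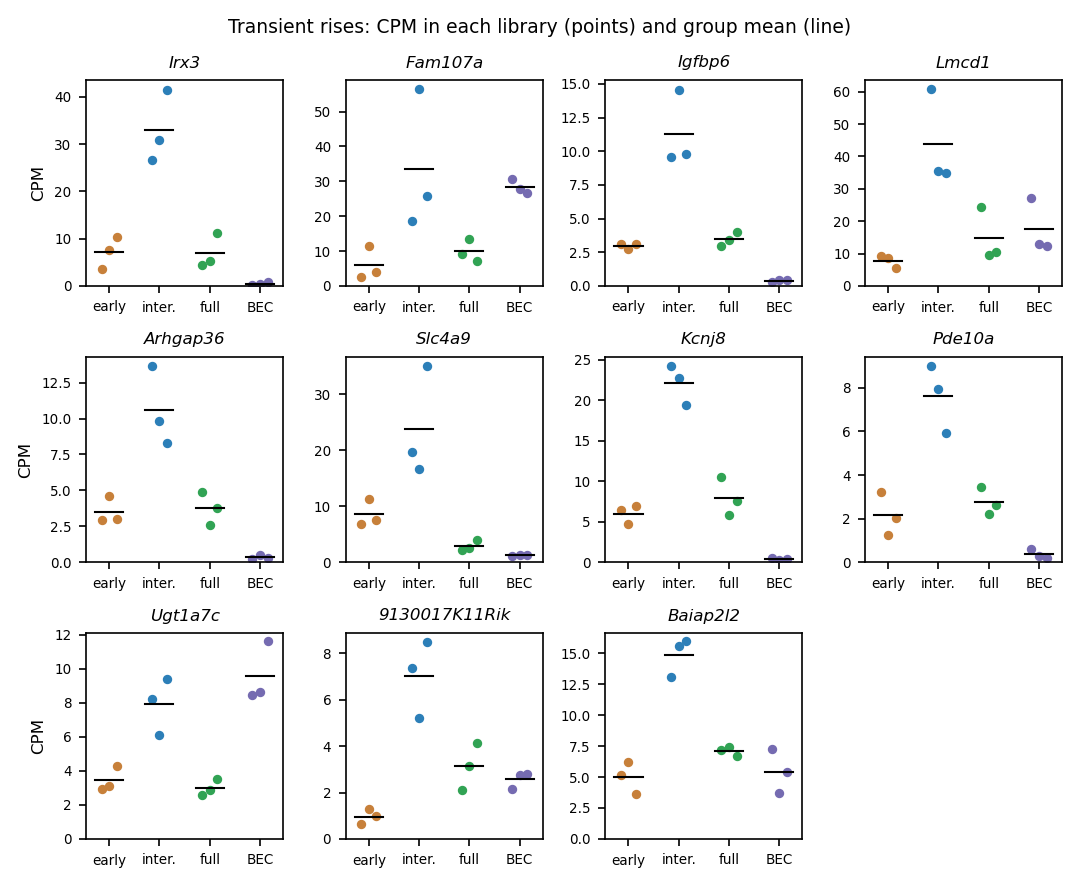
CPM in each of the 12 libraries (points) and the group mean (line) for the rises named for their size and reported here, each on its own axis from 0. The 3 intermediate libraries are the highest of the early, intermediate and full stages in every panel, and BEC lies near 0 for Irx3, Igfbp6, Arhgap36, Kcnj8 and Pde10a but above the intermediate mean for Ugt1a7c.

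The BEC mean lay below the means of both early and full for 80 of 116 rises and above both for 13, where 29.0% and 34.0% of all genes did so. Over the 102 rises called again with 9 libraries, these counts were 70 and 13. No test was made on these counts. Between the ends of the series, 71 rises and 83 dips had no called difference of full from early, 39 rises and 74 dips were higher in full, and 6 rises and 13 dips lower in full. Over all genes, 39.1% were higher and 32.1% lower in full than in early.

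**Figure D5:**
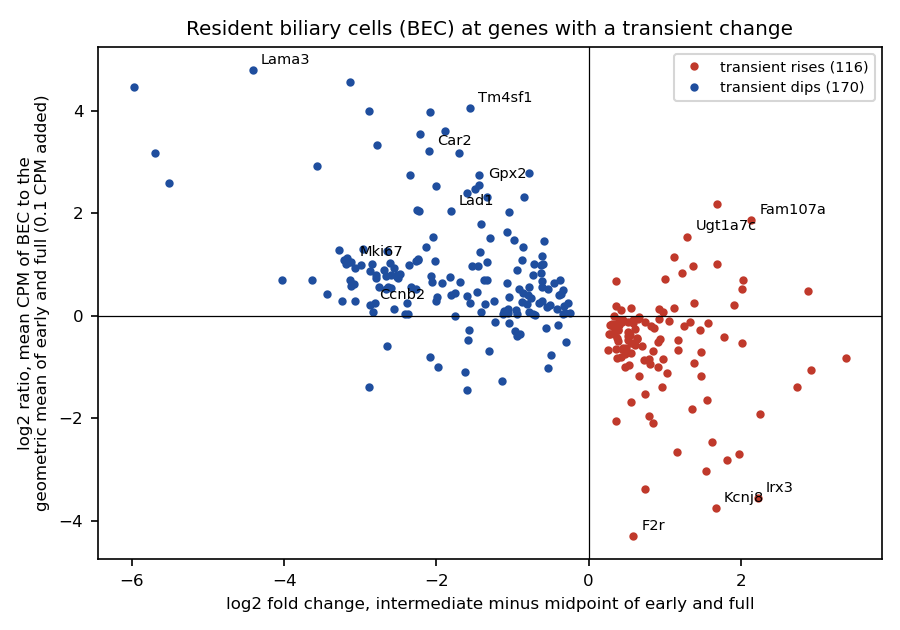
Each point is 1 transient gene, with its log2 difference of intermediate from the midpoint on the horizontal axis and, on the vertical axis, the log2 ratio of the BEC mean to the geometric mean of early and full, after 0.1 CPM was added to each. Of the dips, 149 lie above 0 and 21 below it, and of the rises 21 lie above and 95 below.

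Several pathways were measured without a transient member. None of 18 p53 targets, 10 heat shock, 15 endoplasmic reticulum stress, 15 Nrf2, 14 heme, 24 sterol synthesis, 21 glycolysis, 19 fatty acid oxidation, 21 interferon, 17 Wnt, 19 primary cilium, 18 progenitor or 13 mitochondrially encoded genes was called beyond both neighbours. With 0.716% rises and 1.05% dips over all genes, a list of this length can hold none at the background rate. With the replicate number as a block, Plk2 (p53), Hspa1b (heat shock) and Wnt4 (Wnt) were rises and Abcc4 (Nrf2) and Zbp1 (interferon) were dips. Of the p53 targets, 6 of 18 were higher than the midpoint, as were 9 of 18 progenitor and 8 of 19 cilium genes and 10.8% of all genes. The highest fitted level lay in intermediate for 8 of the 18 p53 targets and for 13.9% of all genes, and the p53 medians were 0.62 against early and 0.20 against full. Plk2, a p53-responsive kinase gene, had 52.0 to 60.8 CPM in early, 144 to 263 in intermediate and 105 to 215 in full, and was not called against full (adjusted p 0.241). With the block it was called against full (log2 0.40, SE 0.15, adjusted p 0.0407) and so was a rise. Of 17 YAP targets, Birc5 was the 1 dip, and it is also a mitosis gene; 12 of the 17 were higher in intermediate than in early, against the same 28.7%.

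Markers of other cell types were examined beside these genes. Of 70 markers in 9 lists (megakaryocyte, mesothelial, erythroid, endothelial, T and NK cell, B cell, macrophage, stellate and fibroblast, neutrophil), 37 passed the filter on low counts, and 0 were transient rises and 0 transient dips. With the replicate block the endothelial gene Vwf was a rise (log2 1.61 against early and 0.83 against full, adjusted p 0.00142 and 0.0391). Ms4a1, Cd3d, Nkg7, Gzma, Hbb-bt, Slc4a1, Ppbp, Gp1bb and Gp9 had 0 counts in all 9 libraries of the 3 stages. Summed macrophage markers ran from 25.9 to 29.4 CPM in early, 30.9 to 41.4 in intermediate and 66.2 to 97.4 in full, endothelial from 17.2 to 28.8, 11.1 to 25.5 and 5.36 to 8.18, erythroid from 21.5 to 36.5, 3.12 to 4.19 and 0.596 to 1.65, and neutrophil from 0.158 to 0.818, 0.329 to 1.13 and 0 to 0.0875. The B cell sum (10.3 to 25.3, 14.9 to 22.0 and 126 to 141) was mostly Cd74, and the stellate sum (144 to 372, 1840 to 2530 and 2990 to 3460) was mostly Rgs5 in intermediate and full. T and NK cell markers summed to at most 1.88 CPM, megakaryocyte markers to 2.59 to 3.91, 3.29 to 4.87 and 4.68 to 5.45. The mesothelial sum alone was lowest in intermediate (3.16 to 6.18, 1.32 to 2.66 and 20.3 to 30.4, with 188 to 214 in BEC) and was mostly Msln in full and BEC. It was lowest at the stage at which the dips high in BEC were, and its part in those dips was not tested.

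The 12 rises and 15 dips named for their size kept their class under each of 20 other settings, except 9130017K11Rik, lost in a test against a 1.5-fold change, and Arhgap11a and Brca1, lost with total counts. The choice of these genes for size and for no overlap in the same libraries largely fixes this. The counts moved with the setting. With total counts, 240 rises and 65 dips were called, of which 49 and 52 were among the 116 and 170. Without full replicate 2 there were 67 rises, without intermediate replicate 2 there were 111 dips, and without early replicate 3 the dips of 2-fold numbered 65 in place of 101.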

How the data were processed

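RNA from 12 sorted cell libraries was sequenced by the authors. Their deposited table holds raw read counts per gene symbol for 53599 genes, and every row had a name and every column a sample. STAR 2.7.10b, featureCounts 2.0.1, DESeq2 and build GRCm39 are named, per the submitters' processing notes. The annotation, strandedness and treatment of multi-mapped reads were not given in the sources used here, so overlapping genes and close copies are uncertain. Groups and replicate numbers came from the sample titles.

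Genes were kept by filterByExpr (16210, holding at least 99.86% of each library) and scaled by TMM. All 12 libraries entered 1 edgeR fit (glmQLFit, glmQLFTest, edgeR 4.0.16, R 4.3.3) with a term per group, and p-values were Benjamini-Hochberg adjusted over all genes tested, with a threshold of 0.05. The common biological coefficient of variation was 14.8%. A level of at most 3 counts (0.128 to 0.273 CPM) was taken as the floor, which covers counting error only. The procedure was tested on simulated data, where the share of transient calls that fell on unchanged genes was above the threshold of 0.05.

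Named genes were the 12 rises and 15 dips of largest size with a mean of at least 5 CPM (in intermediate for rises, in both early and full for dips) and no overlap with the 6 neighbouring libraries, up to 4 transient members per gene list, and 4 reference genes. Lists without a transient member gave up to 2 genes. 1 gene among the rises is not reported here. Members and the 36 lists were chosen with earlier results of these data known. Alternatives used DESeq2 1.42.0, other factors, filters, a 9-library fit, a replicate block, a 1.5-fold test and each library left out.

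Across genes, deviations of same-numbered libraries from their group means had a correlation r of 0.293, 0.121 and 0.221 for intermediate and early. For full and intermediate r was 0.322, 0.137 and 0.296, and for full and early 0.209, 0.096 and 0.135. Same-numbered libraries thus leaned the same way, but the main fit holds no term for the number. Deviations from a mean of 3 libraries sum to 0, so differently numbered libraries lean the other way where these are positive. Between those the lowest r was -0.221 for intermediate and early and -0.269 for full and intermediate. The labels do not say what a number marks. Replicates differed beyond sampling noise (chi-square per degree of freedom 7.40 to 52.1). Promoter sequences are RefSeq's, GRCm38.p6, at the first listed start of each gene. Figures used Python 3.11.15 and matplotlib 3.10.9.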

Additional observations from a re-analysis of the deposited data

How the results depend on the processing

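Of the 12 rises and 15 dips named for size, all but 9130017K11Rik, Arhgap11a and Brca1 kept their class in each of 20 settings. Their choice for size and for no overlap in the same libraries largely fixes this, so it does not measure how stable the calls are. The counts depended on the setting. With total counts the midpoint calls numbered 6139 (5699 higher, 440 lower), the rises 240, the dips 65 and the dips of 2-fold 42. Against a minimum 1.5-fold change they numbered 521 (376 higher, 145 lower), with 18 rises, 58 dips and 58 dips of 2-fold. DESeq2 called 1503 genes lower than the midpoint. With the replicate block 183 rises were called, and the block changed no other of these counts by over 1.5 times. With a mean of at least 50 counts, 14 rises reached 2-fold. Leaving out each library in turn gave 1676 to 2863 midpoint calls, 1200 to 1893 higher and 476 to 970 lower, 67 to 149 rises, 111 to 191 dips, 18 to 25 rises of 2-fold and 65 to 121 dips of 2-fold. The lower calls numbered 573, 476 and 595 without intermediate replicate 1, 2 and 3. Without early replicate 1, 2 and 3, in fits that also hold 1 library fewer, they numbered 944, 873 and 718. Under the other settings 41 values of these counts stayed within 1.5 times and 15 moved further, and with a library left out 77 stayed and 7 moved further. Alb, whose midpoint difference was not called, changed sign with total counts (0.11, adjusted p 0.576). The causes of these shifts were not tested. Depth limits the dips: in 8 of 170 every intermediate library had at most 3 counts, so their fitted sizes are not bounds.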

Other observations

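Some genes were called above the midpoint and above early without being called above full. Hspa1a, an inducible heat shock protein, had 1.90 to 5.58 CPM in early, 30.9 to 45.8 in intermediate and 31.6 to 40.8 in full, and was not called against full (log2 0.13, SE 0.24, edgeR adjusted p 0.716). The small heat shock protein gene Hspb1 had 46.1 to 57.0, 182 to 254 and 157 to 207 CPM (log2 0.20 against full, SE 0.15, adjusted p 0.303), and 57.7 to 77.1 in BEC. Eda2r, a p53-responsive receptor gene, had 3.97 to 4.82, 11.9 to 24.5 and 12.1 to 17.4 CPM. Rgs5, a regulator of G protein signalling that is better known from pericytes, had 33.5 to 49.4 CPM in early, 1715 to 2464 in intermediate and 2944 to 3398 in full, and was called 2.45 above the midpoint (adjusted p 2.89e-07). Wnt7a, a Wnt ligand, was 2.11 above the midpoint, with 0.316 to 0.364, 12.6 to 16.2 and 28.8 to 32.1 CPM, whereas its relative Wnt7b was at most 0.182 CPM in early and 0.126 in intermediate and reached 26.9 to 44.1 in full.

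In a list of heme synthesis and breakdown, 12 of 14 genes were lower in intermediate than in early (25.7% of all genes were) and 7 of 14 higher than in full (19.8% of all), with 3 called below the midpoint (5.64% of all). Cpox, of heme synthesis, had 63.3 to 90.9, 34.8 to 37.4 and 35.0 to 42.8 CPM and was not called between intermediate and full (log2 -0.06, SE 0.15, adjusted p 0.769). In sterol synthesis, 23 of 24 genes were lower in intermediate than in early and 23 of 24 higher than in full, with 4 called below the midpoint and 0 above.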
